A study of Mus musculus with 21 samples.

Results

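Expression of 9 genes associated with the stroma of the developing kidney was followed across the transcriptome, the translatome and the lineage-restricted translatomes of the embryonic mouse kidney and forebrain. The genes were Foxd1, Tcf21, Meis1, Ren1, Tbx18, Pdgfra, Dcn, Lum and Postn. They were found by symbol among the 23827 rows of each expression file, and each symbol matched a single row. Of the 9 genes, 8 had enough mapped sequence to be read as levels, and the row for Ren1 did not, as described further on.

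The renal stroma is the interstitial mesenchyme that lies between the nephrons, the ureteric tree and the vessels. Its progenitors at the kidney surface express the forkhead factor Foxd1 and give rise to interstitial fibroblasts, pericytes, mesangial cells and renin cells. Tcf21, Meis1 and Tbx18 encode further mesenchymal transcription factors, Pdgfra encodes a growth factor receptor of fibroblasts, and Dcn, Lum and Postn encode proteins secreted into the matrix.

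All embryos were taken at E14.5. Transcriptome and translatome samples came from kidneys and forebrains of Sox2Cre+/-;Gt(ROSA)26Sor-mCherry-Rpl10a+/- embryos, in which Sox2Cre switches on an mCherry-tagged ribosomal protein throughout the embryo proper. The endothelial cell (EC) translatomes of both organs came from Cdh5CreERT2+/-;Gt(ROSA)26Sor-mCherry-Rpl10a+/- embryos, where the Cre is driven by the VE-cadherin promoter and was induced by tamoxifen given to the dam by gavage. The Emx1-lineage translatome came from forebrains of Emx1Cre+/-;Gt(ROSA)26Sor-mCherry-Rpl10a+/- embryos, with Cre in the dorsal telencephalic lineage. Every group therefore carried the same reporter allele, and translatome RNA was recovered by immunoprecipitation of the tagged ribosomes. The paper's methods describe homogenizing the tissue of a single embryo or of a pair of embryos. With 3 samples in each of 7 groups there were 21 libraries, holding from 21760652 to 79231692 reads, and the kidney translatome was the shallowest group with 21760652 to 24605124 reads. No sample pair had identical values. The markers of the labelled cells were in place: all 8 endothelial markers were higher in the EC translatome than in the organ translatome in kidney and in forebrain, with a median log2 fold change of 3.01 and 4.48, and all 8 were lower in the Emx1-lineage translatome. The 3 kidney EC libraries were sequenced in a run of their own and so were the brain EC libraries, so run and group cannot be told apart there. Cre driver also went with group in the comparisons of a lineage with its whole organ, and tamoxifen in those of EC. In tissue samples such as these, fewer cells of a type and less RNA per cell cannot be told apart.

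On GRCm38, the 9 genes are all annotated as protein coding. Foxd1 lies on chromosome 13 at 98354242 to 98359305, Tcf21 on chromosome 10 at 22817281 to 22820174 and Meis1 on chromosome 11 at 18879817 to 19018985. Tbx18 lies on chromosome 9 at 87702800 to 87731260, Pdgfra on chromosome 5 at 75152292 to 75198215 and Postn on chromosome 3 at 54361109 to 54391037. Dcn and Lum are neighbours on chromosome 10, at 97479609 to 97518143 and 97565128 to 97572703. Ren1 lies on chromosome 1 at 133350510 to 133360325.

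RefSeq promoters on GRCm38.p6 were available for 7 of the 9 genes, Dcn and Lum being the exceptions, with a pair of starts for Postn, which gave 8 promoters. Each was searched on both strands over the 250 bases before the start. RefSeq starts can differ from the gene spans given above. For Ren1 the start lies inside that span, and so does much of its window, TATAAA included. The sequences printed here belong to the stromal progenitor factor Foxd1 and to the secreted products Ren1 and Postn, because these held the matches that set the 8 promoters apart from one another. Capitals mark CCAAT and TGACAG in Foxd1 and TATAAA in Ren1 and Postn, all on the plus strand and all written 5′ to 3′.
Foxd1, chr13:98353995-98354244: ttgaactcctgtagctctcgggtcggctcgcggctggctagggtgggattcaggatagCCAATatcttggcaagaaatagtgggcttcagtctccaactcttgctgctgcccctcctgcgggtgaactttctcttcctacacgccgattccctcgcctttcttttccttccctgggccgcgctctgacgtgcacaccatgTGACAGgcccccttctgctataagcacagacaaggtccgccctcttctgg
Ren1, chr1:133350424-133350673: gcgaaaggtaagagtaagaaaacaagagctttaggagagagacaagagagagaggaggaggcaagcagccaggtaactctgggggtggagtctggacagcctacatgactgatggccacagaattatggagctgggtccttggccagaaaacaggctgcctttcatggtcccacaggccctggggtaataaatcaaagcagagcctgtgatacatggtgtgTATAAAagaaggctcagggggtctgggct
Postn, chr3:54360857-54361106: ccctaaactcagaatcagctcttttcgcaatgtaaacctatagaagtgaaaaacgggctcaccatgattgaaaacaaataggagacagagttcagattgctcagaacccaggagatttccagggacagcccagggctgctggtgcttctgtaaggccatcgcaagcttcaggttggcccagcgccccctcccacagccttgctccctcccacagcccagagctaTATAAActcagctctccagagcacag

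The TATA box letters TATAAA began 29 bases before the Ren1 start and 26 bases before this Postn start, and were in 2 of the 8 promoters against 12.4% of the 32851 promoters searched. These 32851, called all promoters below, do not cover every chromosome. The letters TGACAG, which MEIS proteins can bind, were in 1 of the 8, that of Foxd1 at 50 bases before the start, against 15.9% of all promoters. There they overlapped a general E-box, CANNTG, at 54 bases, a pattern found in 4 of the 8 and in 66.2% of all promoters. CCAAT was in 3 of the 8, those of Foxd1, Tbx18 and Meis1, against 33.8%. GGGCGG was in 1 of the 8, that of Foxd1, against 32.7%. No match was found among the 8 for CAGCTG (13% of all promoters), TGTTTAC (3.17%) or TCACACC (3.33%). These are matches of letters in a short window and were not tested as binding sites.

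The genes differed widely in level, given here as RPKM, the reads of a gene scaled by its length and by the mapped reads of the library. In the kidney translatome Tcf21, a helix-loop-helix factor of renal mesenchyme and podocytes, was highest at 151 ± 11.1 RPKM (SD, n = 3). Foxd1 followed at 65.0 ± 12.6, Postn at 51.6 ± 16.7, Meis1 at 49.3 ± 3.79, Dcn at 40.1 ± 9.31 and Pdgfra at 32.8 ± 2.77 RPKM, and the ranges of neighbours among these genes overlapped. Lum at 12.8 ± 3.70 and Tbx18 at 4.43 ± 0.521 RPKM were lowest.

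**Figure D1:**
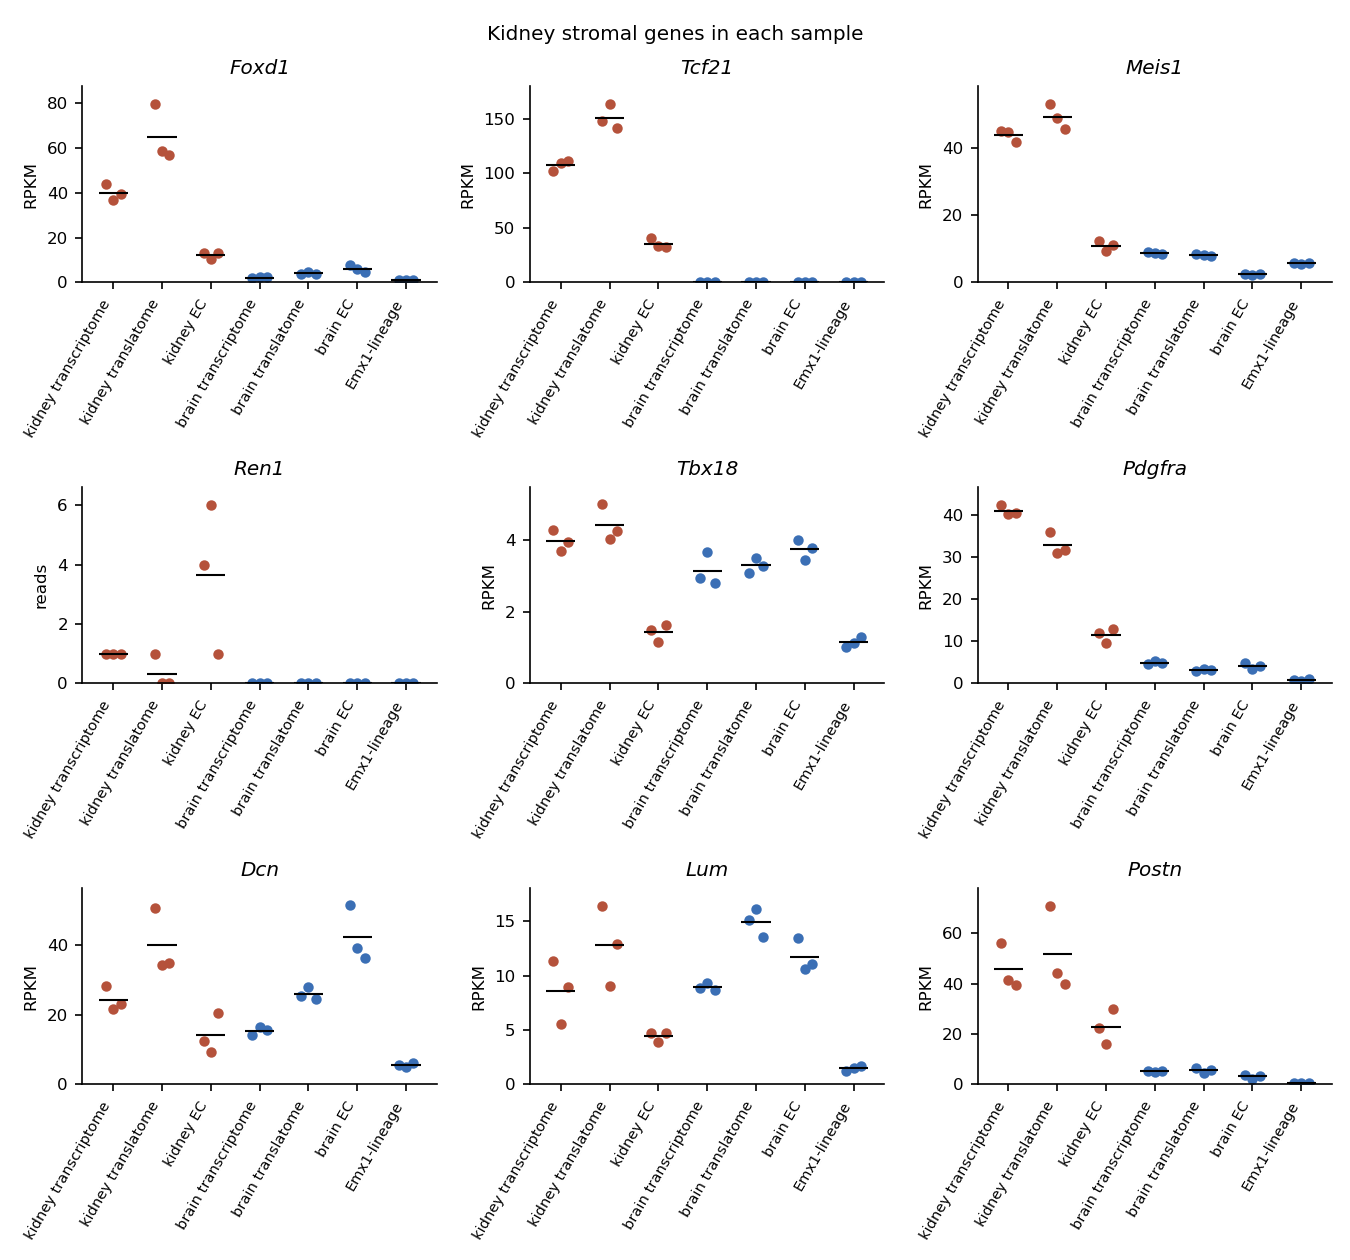
Level of each of the 9 genes in every sample, as RPKM on a linear axis from 0, or as reads for Ren1; points are samples, lines are means of 3, red is kidney and blue is forebrain. Foxd1, Tcf21, Meis1, Pdgfra and Postn were highest in whole kidney, whereas Tbx18, Dcn and Lum reached similar levels in forebrain samples.

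Ren1 could not be read as a level. Its row had 15 reads in all 21 samples, and the values imply that only 9 of 1592 annotated bases (0.57%) were counted, whereas the other 8 genes were counted over 49.0% to 108% of their annotated length. The row of Ren2, the closely similar second renin gene of some mouse strains, was at 0 reads throughout. Ren1 had 1 read in each kidney transcriptome sample, 1, 0 and 0 in the translatome samples and 4, 6 and 1 in the kidney EC samples. The kidney EC ratio to the translatome was 6.43 with an exact 95% interval from 0.934 to 277 per total read, which covers counting error only, and neither EC comparison of Ren1 in kidney passed the test (adjusted p = 0.0884 and 0.0554). All 12 forebrain libraries were at 0, and at this depth a count of 0 allows 3 reads, or 4.24 to 11.0 RPKM over 9 bases.

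The first comparison asked how ribosome-bound RNA differed from total RNA in kidney. In the translatome, Foxd1 and Tcf21 were higher than in the transcriptome, none of the 9 genes was lower by the threshold used throughout, an adjusted p under 0.001 in edgeR's quasi-likelihood test, and the other 7 did not pass. Over all 19336 genes tested, 14.9% were higher and 15.8% lower. Fold changes here and below are log2 values from read counts scaled by trimmed means, with their standard errors.

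Foxd1 measured 79.5, 58.5 and 56.9 RPKM in the kidney translatome against 44.0, 37.0 and 39.2 RPKM in the transcriptome. The groups did not overlap, and the log2 fold change was 0.70 ± 0.12 (adjusted p = 0.00047). Without transcriptome replicate 2 it was 0.64 (adjusted p = 0.0011), and without replicate 3 it was 0.68 (adjusted p = 0.0014), so the call rests on both. It was also lost with a filter of 10 counts in 3 samples (0.71, adjusted p = 0.0011). Tcf21 measured 148, 163 and 142 RPKM against 102, 110 and 111 RPKM. These did not overlap either, and Tcf21 was higher by 0.49 ± 0.05 (adjusted p = 2.4e-05).

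Pdgfra stood on the other side. Its level was 36.0, 30.9 and 31.5 RPKM in the kidney translatome and 42.3, 40.2 and 40.3 RPKM in total RNA, without overlap, and the log2 fold change was -0.32 ± 0.06 (adjusted p = 0.0011), which narrowly missed the threshold. It passed without translatome replicate 1 (-0.39, adjusted p = 4.4e-05) and with DESeq2 (-0.31, adjusted p = 7.8e-06). Decorin, the Dcn product, is a collagen-binding proteoglycan, and Dcn had 50.9, 34.5 and 35.0 RPKM against 28.2, 21.7 and 23.1 RPKM. The groups did not overlap, but replicate 1 was highest in both, and the log2 fold change of 0.72 ± 0.15 missed the threshold (adjusted p = 0.0019), while it was 0.85 without transcriptome replicate 1 (adjusted p = 0.00073). Lum, Postn, Meis1 and Tbx18 had log2 fold changes of 0.57, 0.18, 0.16 and 0.16, and none passed.

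Samples of the same number shared their tissue. With the replicate number as a block, 6 of the 9 genes were higher and 1 lower: Dcn (0.72), Lum (0.58), Meis1 (0.16, adjusted p = 7.1e-05) and Postn (0.16, adjusted p = 0.00018) joined Foxd1 and Tcf21, and Pdgfra (-0.32) was lower. The block fit also called more of all genes, 4636 higher and 4860 lower of 19336, against 2880 and 3049 without it. That fit placed no gene-specific spread around the trend, and DESeq2 with the same block, an alternative chosen after seeing the data, called 4 genes higher (Foxd1, Tcf21, Dcn and Lum) and Pdgfra lower, with Meis1 at adjusted p = 0.0021 and Postn at adjusted p = 0.0211. Of the 17461 genes it tested, DESeq2 with the block called 3627 higher and 3631 lower.

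In the forebrain, where 8 of the 9 genes had reads, Foxd1, Dcn and Lum were higher in the translatome and Pdgfra was lower, against 18.6% of genes higher and 18.5% lower. Foxd1 rose by 0.95 ± 0.12 (adjusted p = 1.3e-05), from 1.89, 2.52 and 2.26 RPKM to 3.93, 4.83 and 3.97 RPKM. Dcn rose by 0.78 ± 0.08 and Lum, which encodes the related proteoglycan lumican, by 0.77 ± 0.08 (adjusted p = 7.9e-07 and 1.3e-06). Pdgfra was at 3.07, 3.49 and 3.14 RPKM in the translatome and 4.53, 5.28 and 4.81 RPKM in total RNA, and its log2 fold change was -0.56 ± 0.08 (adjusted p = 4.1e-05). For each of these 4 genes the groups did not overlap. The block left these calls as they were, but in a single fit of all 21 samples Dcn (0.75, adjusted p = 0.0022) and Lum (0.74, adjusted p = 0.0024) missed the threshold at much the same fold change.

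The test of the difference between the organs found none of the 9 genes changed, against 4.12% of genes higher and 2.35% lower. The closest to the threshold were Meis1 at 0.24 ± 0.09, Pdgfra at 0.26 ± 0.10 and Tcf21 at 1.54 ± 0.59 (adjusted p = 0.0589, 0.0621 and 0.0739), and for Foxd1 the difference was -0.23 ± 0.19 (adjusted p = 0.454).

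**Figure D2:**
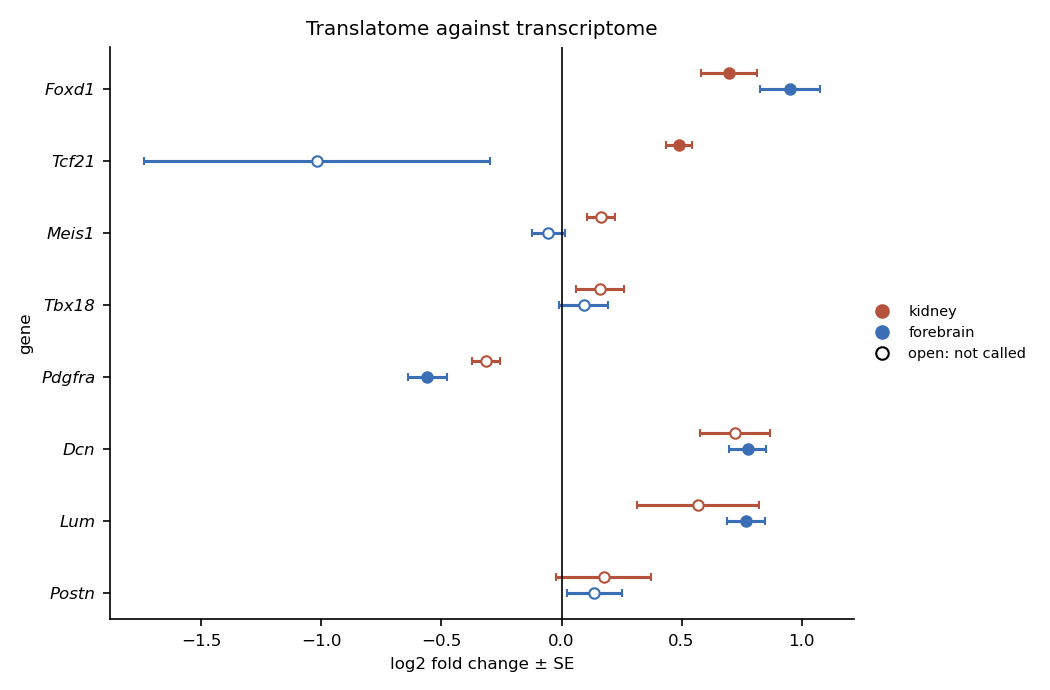
Log2 fold change of translatome over transcriptome (x axis) with its standard error for 8 genes in kidney (red) and forebrain (blue), 3 samples a group; filled points passed an adjusted p of 0.001. Foxd1, at 0.70 and 0.95, was right of 0 in both organs and Pdgfra, at -0.32 and -0.56, was left of 0 in both.

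The kidney EC translatome was then set against the whole kidney translatome. Of the 9 genes, 6 were lower (Foxd1, Tcf21, Meis1, Tbx18, Pdgfra and Lum) and none was higher, against 15% of all genes lower and 16.7% higher. The median over the 9 genes was -1.17 on the log2 scale, beside -0.04 over all 18940 genes. Scaling by total reads alone moved the median of all genes by -0.37, changed the calls over all genes from 3163 higher and 2837 lower to 1564 and 5655, and left each of the 6 genes called lower.

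Among the transcription factors, Foxd1 had 13.3, 10.3 and 13.3 RPKM in kidney EC, well under every translatome sample, and fell by 2.04 ± 0.14 on the log2 scale (adjusted p = 4.0e-07). Tcf21 had 41.0, 33.5 and 32.6 RPKM and fell by 1.72 ± 0.09 (adjusted p = 4.5e-08). Meis1, a homeobox factor, went from 53.2, 49.0 and 45.7 RPKM to 12.3, 9.42 and 11.2 RPKM and fell by 1.81 ± 0.10 (adjusted p = 6.1e-08). Tbx18, a T-box factor of ureteral and stromal mesenchyme, had 5.02, 4.03 and 4.24 RPKM in the translatome and 1.49, 1.16 and 1.63 RPKM in EC, and fell by 1.27 ± 0.14 (adjusted p = 2.1e-05). For these 4 factors no EC sample reached the lowest translatome sample.

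The matrix genes were nearer to the threshold than the receptor. Pdgfra had 12.0, 9.69 and 12.9 RPKM in kidney EC and fell by 1.15 ± 0.11 (adjusted p = 3.9e-06). Lum went from 16.5, 9.06 and 13.0 RPKM to 4.77, 3.89 and 4.70 RPKM and fell by 1.17 ± 0.19 (adjusted p = 0.0003), but without translatome replicate 3 its adjusted p was 0.0031 at -1.16. Dcn had 12.5, 9.43 and 20.5 RPKM in EC, where replicate 3 was highest, and its log2 fold change of -1.14 ± 0.25 missed the threshold (adjusted p = 0.0022), whereas it was -1.52 without EC replicate 3 (adjusted p = 2.7e-05). Postn, which encodes the matricellular protein periostin, had 70.8, 44.1 and 40.0 RPKM in the translatome and 22.6, 16.0 and 29.9 RPKM in EC, at -0.82 ± 0.24 (adjusted p = 0.0125). Neither gene overlapped between the groups, and both passed when counts were scaled by total reads alone (-1.52 and -1.19, adjusted p = 0.00014 and 0.00068), as did Dcn in a single fit of all 21 samples (-1.17, adjusted p = 2.1e-05).

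Set against the kidney transcriptome, 5 of the 9 genes were lower in kidney EC (Foxd1 -1.27, Tcf21 -1.16, Meis1 -1.58, Tbx18 -1.04 and Pdgfra -1.40), against 18.4% of genes lower and 22.7% higher. Lum at -0.53 ± 0.22, Dcn at -0.35 ± 0.24 and Postn at -0.57 ± 0.21 did not pass, and Lum was at -0.76 without transcriptome replicate 2 (adjusted p = 0.00079). Here scaling by total reads turned 4388 higher and 3550 lower calls over all genes into 2246 and 6864. Both kidney EC comparisons use the same EC samples.

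None of the 8 readable genes was at 0 in kidney EC, and Tbx18 was lowest at 1.16 to 1.63 RPKM. The shares given next use RPKM, which is scaled by total reads. Beside the trimmed-mean fold changes above, that scaling moved the median of all genes by -0.37, so the shares are lower than on the tested scale. As a share of the translatome RPKM they lay at 18.9% for Foxd1, 22.2% for Meis1, 23.6% for Tcf21, 32.2% for Tbx18, 34.7% for Lum, 35.1% for Pdgfra, 35.2% for Dcn and 44.2% for Postn, with a median of 33.5%. Markers of other kidney cells also kept part of their level: the 6 nephron progenitor genes had 7.92% to 33.2% (median 18.1%), the 6 ureteric bud genes 15.7% to 63.1% (median 25.4%) and the 3 macrophage genes 24.3% to 31.8%. The 8 endothelial genes had 424% to 709%. How much of the remaining stromal signal came from RNA of other cells was not tested.

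Podocyte markers moved the other way from the stromal genes, and Tcf21 is known in podocytes too. All 6 podocyte genes were higher in kidney EC, at 135% to 372% of the translatome, and none was at 0. Their summed level was 83.5 to 115 RPKM in the translatome samples and 238 to 285 RPKM in the EC samples. Podxl, which encodes podocalyxin of podocytes and of endothelium, made up most of it, at 189 ± 14.0 RPKM in EC. The part of podocyte RNA in the Tcf21 level of kidney EC was not tested. Mural genes were split, with 2 of 7 higher (Abcc9 and Cspg4) and 5 lower. Over all genes, 16.7% were higher and 15% lower in kidney EC.

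**Figure D3:**
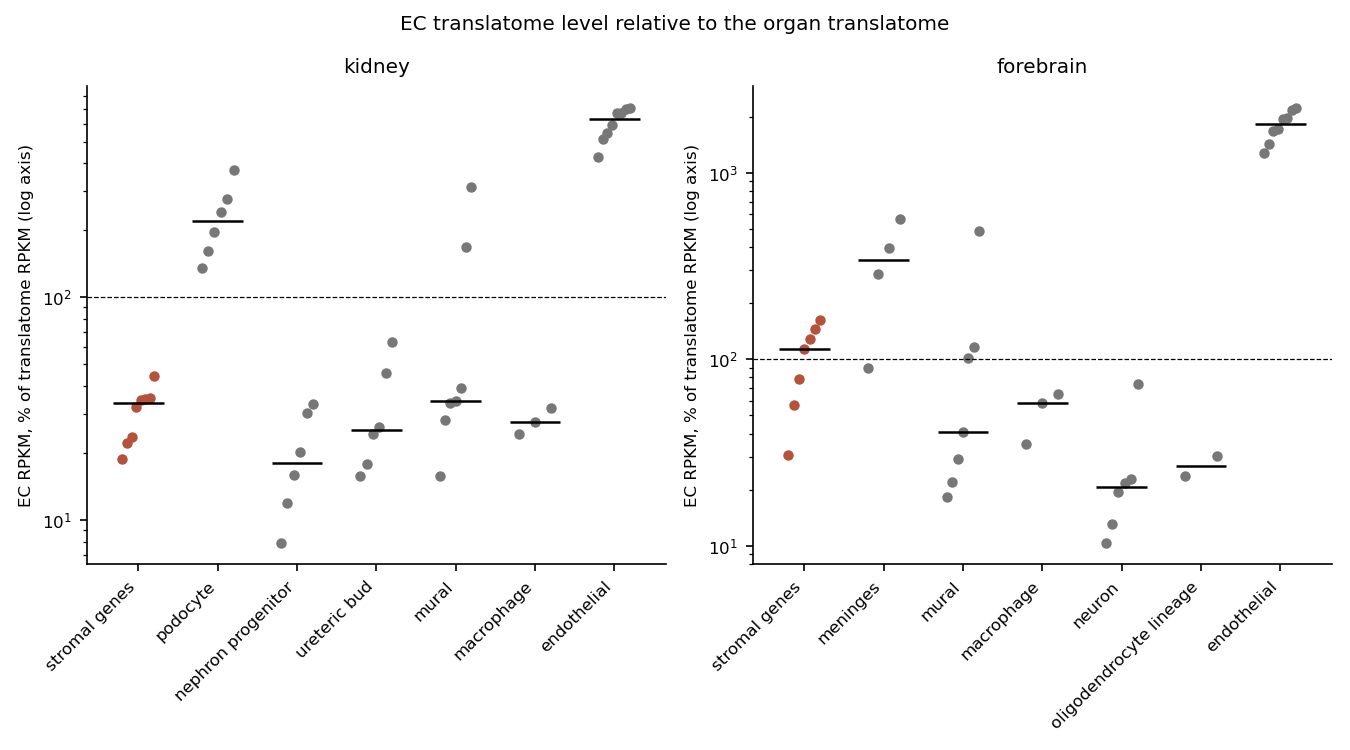
RPKM in the EC translatome as a percentage of the organ translatome (log axis), for genes of at least 1 RPKM in the translatome, in kidney (left) and forebrain (right); points are genes, bars are medians, the dashed line is 100%, and Ren1 is left out. The 8 stromal genes in kidney lay between 18.9% and 44.2%, and the 7 in forebrain between 30.5% and 163%. RPKM is scaled by total reads, which moved the log2 median of all genes by -0.37 in kidney EC and -0.30 in brain EC relative to the tested scale.

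In the forebrain the EC comparison looked different. Foxd1, Tbx18, Pdgfra and Dcn were higher in brain EC than in the brain translatome and Meis1 was lower, so 4 of 8 genes tested were higher and 1 lower, against 24.8% and 21.4% of all genes. Dcn had 51.5, 39.2 and 36.5 RPKM in brain EC and 25.6, 27.9 and 24.6 RPKM in the translatome. The groups did not overlap, and Dcn rose by 0.89 ± 0.10 (adjusted p = 3.6e-06). Foxd1 had 7.72, 6.03 and 4.88 RPKM against 3.93, 4.83 and 3.97 RPKM, again without overlap, and rose by 0.84 ± 0.15 (adjusted p = 0.00025). Meis1 fell by 1.42 ± 0.09 (adjusted p = 1.3e-08), from 8.58, 8.26 and 8.02 RPKM to 2.68, 2.26 and 2.64 RPKM.

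The calls of Foxd1, Tbx18 and Pdgfra depended on scaling and on single libraries. Tbx18 was at 0.48 ± 0.09 (adjusted p = 0.00044) and Pdgfra at 0.64 ± 0.12 (adjusted p = 0.00031), and in RPKM the samples of both genes overlapped between the groups. With total reads as the only scaling, Foxd1 was at 0.55 (adjusted p = 0.006), Pdgfra at 0.35 (adjusted p = 0.0188) and Tbx18 at 0.18 (adjusted p = 0.101), while Dcn stayed called; over all genes that scaling gave 3397 higher and 6002 lower calls in place of 4740 and 4084. Foxd1 lost its call without brain translatome replicate 1 or 3 (0.79 and 0.80, adjusted p = 0.007 and 0.0016), and Foxd1 and Pdgfra lost theirs with the filter of 10 counts in 3 samples (0.82 and 0.62, adjusted p = 0.0011 for each). Tbx18 and Pdgfra lost theirs without replicate 1 or 3 of either group, at 0.43 to 0.48 for Tbx18 and 0.52 to 0.63 for Pdgfra. Lum had 13.5, 10.7 and 11.1 RPKM in brain EC against 15.2, 16.2 and 13.6 RPKM, without overlap, but RPKM is scaled by total reads and its log2 fold change on the trimmed-mean scale was -0.06 ± 0.10. Neither Lum nor Postn, at -0.52 ± 0.17, passed (adjusted p = 0.611 and 0.0153).

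Meningeal markers were higher in the same brain EC libraries, where 24.8% of all genes were higher. Of 4 genes, 3 rose (Foxc1 by 2.78, Foxc2 by 2.29 and Slc6a13 by 1.81), Crabp2 was at 0.14 ± 0.24 (adjusted p = 0.638), and none was at 0. The summed level of the 4 genes was 31.1 to 42.3 RPKM in the brain translatome and 64.4 to 91.4 RPKM in brain EC. In the Emx1-lineage samples the sum was 18.1 to 18.6 RPKM. Neuronal markers were at 10.4% to 73.6% of their translatome level in brain EC. The part of meningeal RNA in the Dcn and Foxd1 levels of brain EC was not tested.

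In the Emx1-lineage samples 7 of the 8 genes tested were lower than in the brain translatome, none was higher and Tcf21 did not pass, against 12.8% of all genes lower and 9.2% higher. Scaling by total reads gave 1183 higher and 2778 lower calls over all genes in place of 1749 and 2442. Postn fell by 3.35 ± 0.14 (adjusted p = 6.9e-11), from 6.56, 4.47 and 5.87 RPKM to 0.515, 0.504 and 0.549 RPKM. Lum fell by 3.27 ± 0.10 (adjusted p = 4.9e-12), from 15.2, 16.2 and 13.6 RPKM to 1.29, 1.50 and 1.72 RPKM. Dcn (-2.13), Foxd1 (-1.98), Pdgfra (-1.88) and Tbx18 (-1.47) fell less, and Meis1 (-0.48 ± 0.06, adjusted p = 2.8e-05) least. Tcf21 had 8 reads in the 3 brain translatome samples and 1, 0 and 2 in the Emx1-lineage samples (log2 fold change -1.82 ± 0.93, adjusted p = 0.129). Endothelial, mural and macrophage lists also fell in full (8 of 8, 7 of 7 and 3 of 3 genes), and their part in these falls was not tested. The EC and Emx1-lineage comparisons share the brain translatome samples.

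**Figure D4:**
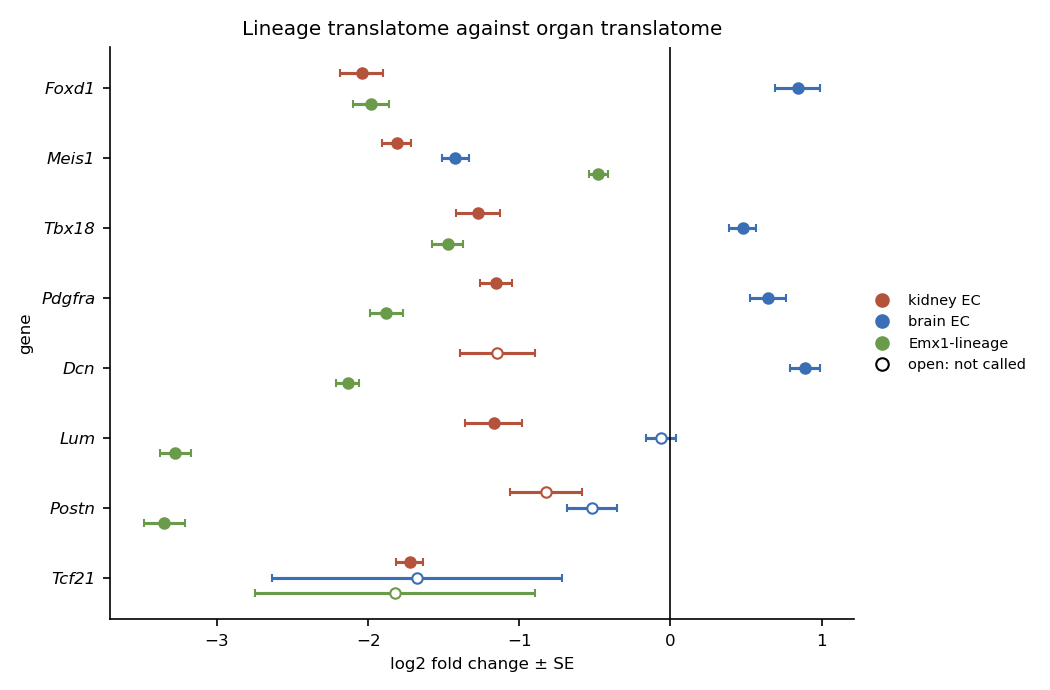
Log2 fold change of each lineage translatome over its organ translatome (x axis) with its standard error, for kidney EC (red), brain EC (blue) and Emx1-lineage (green), 3 samples a group; filled points passed an adjusted p of 0.001. Foxd1 was at -2.04 in kidney EC and 0.84 in brain EC, and Lum and Postn were lowest in the Emx1-lineage at -3.27 and -3.35.

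The difference between the organs in the EC comparison was tested directly, as an interaction added after seeing the values. It was called for 5 of the 9 genes, all lower in kidney, against 16.5% of genes lower and 8.6% higher. Foxd1 differed by -2.91 ± 0.23, Dcn by -2.06 ± 0.30, Pdgfra by -1.83 ± 0.18, Tbx18 by -1.78 ± 0.18 and Lum by -1.13 ± 0.23. Lum lost its call with RLE size factors, with the filter of 10 counts in 3 samples, in the single fit of all 21 samples and without any 1 of 10 of the 12 libraries, at -1.19 to -0.91 (adjusted p = 0.0011 to 0.003), namely each kidney EC and brain translatome library, kidney translatome replicates 1 and 3 and brain EC replicates 1 and 3. Endothelial enrichment was itself greater in forebrain, where the same test gave 8 of 8 endothelial genes lower in kidney with a median of -1.50. All 4 meningeal genes were lower too, with a median of -3.49, and all genes had a median of -0.16. Those 4 genes were also read in kidney, at a summed 154 to 184 RPKM in the kidney translatome against 31.1 to 42.3 in that of forebrain. All 4 were lower in kidney EC than in the kidney translatome, so their difference between organs does not reflect meninges alone. Meis1 (-0.41 ± 0.14, adjusted p = 0.0229), Postn (-0.33 ± 0.34, adjusted p = 0.498) and Tcf21, with 3 reads in brain EC, did not pass.

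Whole kidney and forebrain were compared to ask which of the genes belonged to kidney at this stage. Foxd1, Tcf21, Meis1, Pdgfra and Postn were higher in the kidney in both total and ribosome-bound RNA, 5 of the 9 genes in each, whereas 26.3% of all genes were higher and 27.2% lower in the transcriptome, and 26.2% and 27.2% in the translatome. None of the 9 was lower. The gene with the widest gap was Tcf21, with 24 reads in the 3 brain transcriptome samples against 16062 in kidney, a ratio of 819 per total read (exact 95% interval 550 to 1.28e+03, counting error only). Its log2 fold change was 9.49 ± 0.18 in the transcriptome and 11.00 ± 0.14 in the translatome.

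Foxd1 was higher in kidney by 3.98 ± 0.11 in total RNA and 3.74 ± 0.13 in the translatome, Postn by 2.95 ± 0.13 and 3.00 ± 0.19, Pdgfra by 2.88 ± 0.06 and 3.14 ± 0.08, and Meis1 by 2.14 ± 0.05 and 2.37 ± 0.07. All of these had an adjusted p of 6.5e-09 or less. Kidney and forebrain samples did not overlap for any of them.

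Tbx18, Dcn and Lum were not called higher in kidney in these fits. Tbx18 had 3.97 ± 0.296 RPKM in the kidney transcriptome and 3.14 ± 0.460 RPKM in that of the forebrain, a log2 difference of 0.15 ± 0.10 (adjusted p = 0.231). In RPKM its kidney samples lay above those of forebrain without overlap, in the transcriptome and in the translatome. Lum was at 8.64 ± 2.92 and 8.97 ± 0.365 RPKM, with overlapping samples, and differed by -0.24 ± 0.20 (adjusted p = 0.307). In the translatome Lum differed by -0.42 ± 0.16 (adjusted p = 0.0319), and by -0.65 without kidney translatome replicate 1 (adjusted p = 0.00086). Dcn was at 24.3 ± 3.48 RPKM in kidney and 15.5 ± 1.24 RPKM in forebrain without overlap, at 0.46 ± 0.10 (adjusted p = 0.0022) in the transcriptome and 0.42 ± 0.12 (adjusted p = 0.0072) in the translatome. Dcn was called higher in kidney under total-read scaling (0.64 and 0.62), with DESeq2 in the transcriptome (0.46, adjusted p = 3.2e-05), without kidney transcriptome replicate 2 (0.54, adjusted p = 0.00065) and without kidney translatome replicate 2 (0.52, adjusted p = 0.00082).

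Between the EC translatomes of the organs, 5 genes were higher in kidney and 3 lower, against 16.9% and 20.1% of all genes. Tcf21 (11.06), Postn (2.80), Meis1 (2.08), Pdgfra (1.43) and Foxd1 (0.94) were higher in kidney EC. Dcn (-1.52 ± 0.24, adjusted p = 0.00023), Lum (-1.44 ± 0.13) and Tbx18 (-1.43 ± 0.14) were higher in brain EC, and samples of the groups did not overlap for any of the 8. The share of all genes without such overlap was not counted, here or in the comparisons above. Lack of overlap is therefore given only as a description of the samples, not as a trait of these genes. Foxd1, at an adjusted p of 0.00049, lost its call without kidney EC replicate 1 or 3 or brain EC replicate 2 (0.88, 0.87 and 0.92, adjusted p = 0.0018, 0.0019 and 0.0018). The kidney EC samples and the brain EC samples are the same as in the comparisons with the translatomes.

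**Figure D5:**
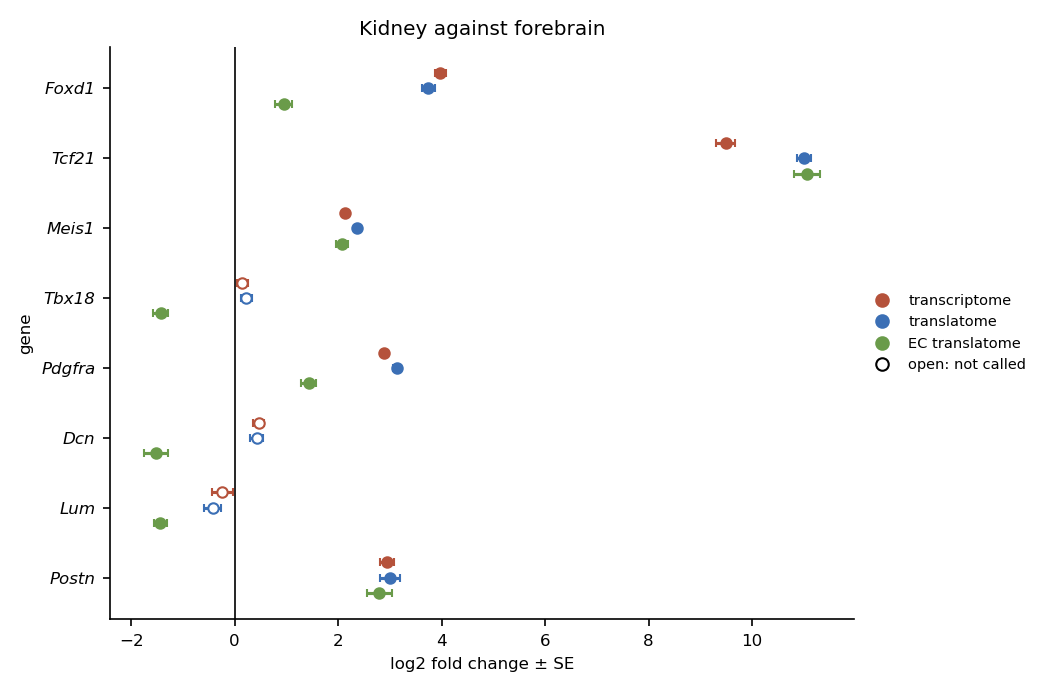
Log2 fold change of kidney over forebrain (x axis) with its standard error in the transcriptome (red), the translatome (blue) and the EC translatome (green), 3 samples a group; filled points passed an adjusted p of 0.001. Tcf21 lay at 9.49 to 11.06, and Tbx18, Dcn and Lum lay between -0.42 and 0.46 in whole organs and at -1.43, -1.52 and -1.44 in EC.

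Other genes of the same compartments and pathways were counted in the same fits. Over all genes, 16.7% were higher and 15% lower in kidney EC, and 24.8% were higher and 21.4% lower in brain EC. Between the translatomes, 26.2% were higher and 27.2% lower in kidney than in forebrain. Counts near these shares, here and in the lists that follow, are not read as results about a family. Of 18 further stromal genes, 10 were lower and 1, Tnc, was higher in kidney EC than in the kidney translatome, with a median of -1.13. Among the most abundant of them, Aldh1a2, which makes retinoic acid in stroma, fell by 2.00 ± 0.17 (adjusted p = 2.6e-06), whereas Col3a1 at 0.15 ± 0.14 and Col1a1 at -0.40 ± 0.17 did not pass. In brain EC 10 of the 18 were higher and 5 lower, Col3a1 by 1.21 ± 0.18, and in the kidney translatome 15 were higher and 1 lower than in forebrain.

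The small leucine-rich proteoglycans, the family of Dcn and Lum, were nearly all low. Of 9 further members, 2 were lower in kidney EC (Bgn by -0.83 ± 0.07 and Ogn by -1.30 ± 0.24), and 4 were higher and 2 lower in brain EC. Bgn, which encodes biglycan, was the most abundant: it had 83.4 ± 3.84 RPKM in the kidney translatome and 36.8 ± 3.36 RPKM in kidney EC, but 45.8 ± 3.74 RPKM in the brain translatome and 235 ± 9.59 RPKM in brain EC.

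Ligands of the PDGF receptors and the second receptor were also read. Pdgfb, the endothelial ligand that recruits pericytes, rose by 2.85 ± 0.08 in kidney EC and by 4.40 ± 0.10 in brain EC (adjusted p = 7.2e-10 and 7.8e-13). Pdgfa, Pdgfc and Pdgfrb fell by 1.45, 2.14 and 1.42 in kidney EC, so 1 of the 5 PDGF genes was higher and 3 lower. In the renin-angiotensin list 1 of 9 genes was higher in kidney EC (Enpep by 0.65 ± 0.11) and 3 were lower, among them the receptor Agtr2 (-2.06 ± 0.20).

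Genes that bind periostin or act on the same matrix were split in kidney EC, with Fn1 (0.81 ± 0.08) and Tnc (2.44 ± 0.10) higher and Tgfbi (-1.59 ± 0.11) and Lox lower, and all 5 were higher in brain EC. Of 12 relatives and partners of the transcription factors, 1 was higher and 5 lower in kidney EC. Among the most abundant of them, Tcf3, Meis2 and Pbx2 had log2 fold changes of -0.28, -0.11 and -0.16 there and did not pass, whereas Meis3, chosen after its values were seen as the relative of Meis1 among the 5 lower genes, fell by 2.70 ± 0.14 (adjusted p = 5.8e-08), beside 1.81 for Meis1.

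Genes with the pattern most like each stromal gene were sought by the root mean square difference of centred log2(RPKM + 1) over the 7 group means, among 13811 genes. Tcf21 was closest to Hoxa10 (0.14) and Wt1 (0.27), and Wt1 is expressed in nephron progenitors and podocytes. Postn was closest to Acta2 (0.18) and Pcolce (0.32), Foxd1 to Pdzk1ip1 (0.32) and Bicc1 (0.33), and Meis1 to Sh3bp1 (0.23) and Axl (0.24). Pdgfra was closest to Anpep (0.25) and Zfp503 (0.31), and Tbx18 to Ddc (0.16) and Fyb (0.18). Dcn was closest to Cldn11 (0.30) and Ctsc (0.32), and Lum to C1qc (0.25) and C1qb (0.26), which are macrophage genes. For Ren1 the closest were Btnl9 and Cyp26b1, which rests on 15 reads. With a pseudocount of 0.1 in place of 1, 7 of these 18 genes stayed the closest.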

How the data were processed

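The authors aligned reads to GRCm38 (mm10) with RUM and counted them over the refGene table with the rpkmforgenes program, so that each deposited file gives a read count and an RPKM per gene, with no gene filter and replicates kept apart. RPKM, which the authors scaled by transcript length and mapped reads, was used for levels, and the deposited counts for tests. Groups came from the labels. The 9 genes and all other lists were chosen with earlier results of these data known. Named genes were these 9, up to 4 per list and comparison (those of highest mean RPKM in the samples compared), the 2 of most similar pattern for each, and genes that make up a count of 5 or fewer, these last chosen after their values were seen. Some genes that this rule names are not reported here.

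Counts of all rows with at least 1 read were fitted, for each comparison on its own 6 samples (12 for differences between organs), with edgeR 4.0.16 in R 4.3.3: TMM scaling, quasi-likelihood test, Benjamini-Hochberg adjustment over all genes, adjusted p under 0.001. The script was tested on simulated data. RPKM ratios use total reads and fold changes use TMM, so the measures can differ. Alternatives were DESeq2 1.42.0, other scalings, a filter of 10 counts in 3 samples, one fit of all 21 samples, a replicate block and leaving out each sample. The study describes its samples as biological replicates, which the labels do not restate, so p-values measure the spread between these samples. Translatome and transcriptome samples of the same number came from the same tissue per the study's sample list, and their deviations from group means correlated at 0.47 to 0.54 in both organs. Those of the EC groups correlated at 0.14 to 0.22. Ren1 had no reads in forebrain, which left 8 genes tested there. Sequences are RefSeq promoters on GRCm38.p6, and figures were drawn with matplotlib 3.10.9.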

Additional observations from a re-analysis of the deposited data

Results flagged for a closer look

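The change from the organ translatome to the EC translatome differed between kidney and forebrain for 5 of the 9 genes, by the interaction test described above (edgeR, kidney minus forebrain). The difference was -2.91 for Foxd1, -1.78 for Tbx18, -1.83 for Pdgfra, -2.06 for Dcn and -1.13 for Lum on the log2 scale. Lum was the least stable of them: its adjusted p was 0.00074, and it missed the threshold without any 1 of 10 of the 12 libraries, at -1.19 to -0.91 with adjusted p = 0.0011 to 0.003. It also missed it with RLE size factors (-1.04, adjusted p = 0.0016), with the filter of 10 counts in 3 samples (-1.12, adjusted p = 0.0016) and in the single fit of all 21 samples (-1.13, adjusted p = 0.0017), each of which left 4 of the 9 genes called. Over all genes those runs called 2895 of 19764, 3136 of 16026 and 3839 of 20384 lower, in place of 3258 of 19764.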

How the results depend on the processing

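No direction of a called value turned under any alternative run. The calls of the kidney translatome against its transcriptome were the most dependent on the fit. The count of genes higher was 2, and became 4 at an adjusted p under 0.05, 1 with the filter of 10 counts in 3 samples, 6 with the replicate block, 4 with DESeq2 with the block, and 1 to 3 when leaving out each library. The count lower was 0, and became 1 at 0.05, with DESeq2, with the block and with DESeq2 with the block, and 0 to 1 when leaving out each library. Over all genes of that comparison, 4704 were higher and 5050 lower of 19336 at 0.05. DESeq2 called 3500 and 3511 of 17452, and the filter 2868 and 2873 of 15334. Leaving out each library gave 2412 to 2732 higher and 2512 to 2751 lower. In forebrain the single fit of all 21 samples called 1 gene higher in place of 3, since Dcn (0.75, adjusted p = 0.0022) and Lum (0.74, adjusted p = 0.0024) lost their calls. Over all genes that fit called 3488 higher and 3747 lower of 20384, in place of 3625 and 3596 of 19446. Brain EC had 4 genes higher, against 1 with total reads only, 2 with the filter and 1 to 4 when leaving out each library, and 1 lower, against 2 at 0.05, with total reads only and with the block. Over all genes, brain EC had 6230 higher and 5917 lower of 19103 at 0.05. It had 4464 and 4088 of 15340 with the filter, and 4665 and 4013 of 19103 with the block. When leaving out each library it had 3909 to 4888 higher and 3238 to 4217 lower. In that comparison the numbers do not pair samples, and the block took the call from Tbx18 and gave one to Postn. The kidney translatome had 0 genes lower than forebrain, against 1 at 0.05 and 0 to 1 when leaving out each library. Of all 19241 genes tested there, 6600 were lower at 0.05. When leaving out each library, 4374 to 5014 of all genes were lower. The block changed no other call of these genes.

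Over all genes the block moved the kidney translatome calls from 2880 higher and 3049 lower to 4636 and 4860, and those of the organ difference in translatome against transcriptome from 829 and 472 to 1978 and 1467 (1562 and 1107 with DESeq2). Emx1-lineage calls went from 1749 higher and 2442 lower to 1116 and 2016 with the block, 1164 and 2252 with the filter and 1183 and 2778 with total reads only. Total reads only moved the median of all genes by 0.18 and 0.19 in the transcriptome and translatome of kidney against forebrain. Kidney translatome libraries were the shallowest, and Ren1 and forebrain Tcf21 rest on few reads.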
